A study of Mus musculus with 137 samples.

Results

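Oxidative phosphorylation is carried out by the complexes of the inner mitochondrial membrane, and its nuclear-encoded subunits are the genes described here in the duodenum of mice that drank hexavalent chromium, Cr(VI). The members were all genes whose symbol begins with Nduf, Uqcr, Atp5 or Cox4 to Cox8, together with Sdha, Sdhb, Sdhc and Sdhd. The rule used names only and no measured value. It found 90 genes of 21450 in the table, carried by 127 of 30146 probes, and where a member had several probes, as 25 did, it was read from the most counted of them. The members were 7 core subunits of complex I, 30 other complex I subunits, 8 complex I assembly factors, 4 subunits of complex II, 8 of complex III, 17 of complex IV and 15 of complex V. Atp5s was matched by name only, since it is a coupling factor that is no subunit of the enzyme, and it was counted apart. Ndufa4 and Ndufa4l2 were counted by name among the other complex I subunits, although Ndufa4 is now regarded as part of complex IV.

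The animals were female wildtype B6C3F1 mice given drinking water with Cr(VI), as sodium dichromate dihydrate, at 0, 0.1, 1.4, 5, 20, 60 or 180 ppm for 7 or 90 days, and tissue was taken on day 8 or day 91. Crypt and villus were scraped from fixed, paraffin-embedded duodenal sections, and RNA in each was counted with TempO-Seq, in which a pair of detector oligos is ligated on the target RNA and sequenced. The series held 71 libraries of crypt and 66 of villus from 71 mice, in 28 groups of 4 to 6 mice each, and 66 mice gave both. Controls differed from the other groups only in drinking water without Cr(VI), and no allele or other agent was varied. Total counts per library lay between 1463938 and 7199801, with a median of 3592983. Levels are given as CPM, the counts of a probe scaled to a fixed library size, after trimmed-mean scaling, and since each probe binds with its own efficiency, levels of different genes cannot be set against each other.

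Complexes I and II pass electrons from NADH and succinate to coenzyme Q, complex III passes them on to cytochrome c, and complex IV hands them to oxygen. Complexes I, III and IV pump protons as they do so, and complex V, the ATP synthase, lets the protons return and makes ATP. Most subunits are encoded in the nucleus, a small set at the catalytic core is encoded in mitochondrial DNA, and enterocytes of the villus use the pathway to drive nutrient uptake.

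Of the 90 members, 88 passed the filter on low counts, and the muscle isoform Cox6a2 and the testis isoform Cox7b2 did not. In all libraries 62 members had over 3 counts. The following 10 had over 3 counts in fewer than 69 libraries, which is less than 1 in 2 of them: Ndufaf2, Ndufa3, Ndufa4l2, Sdhb, Cox4i2, Cox6a2, Cox7a2, Cox7b2, Cox8c and Atp5s. A member low by its probe need not be low in the tissue, and these counts cannot tell the 2 apart. Sdhb, the iron-sulfur subunit that complex II cannot work without, was read from 1 probe only. Its mean level in untreated crypt at day 8 was 0.94 CPM ± 1.69 (SD, n = 5), which is near background.

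Promoters of the members were searched in the RefSeq sequences of the GRCm38.p6 build, from 250 bases before to 50 bases after the start of the gene, and 74 of the 90 members had an entry. The binding motif of NRF1, a regulator of nuclear genes for mitochondrial proteins, was searched as GCGCA and GCGC with any 1 base between them, on either strand. It was present in the promoters of 19 members, 25.7% of those with an entry, against 5.19% of all 27025 symbols in the table. The stretches below are shown because these 4 members were among those with the smallest p in the trends described next. Capitals mark the NRF1 motif, with at most 40 bases kept on either side inside the window upstream of the start.
Atp5c1, chr2:10080433-10080489, minus strand: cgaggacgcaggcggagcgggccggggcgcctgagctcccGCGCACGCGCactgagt
Atp5k, chr5:108434400-108434489, minus strand: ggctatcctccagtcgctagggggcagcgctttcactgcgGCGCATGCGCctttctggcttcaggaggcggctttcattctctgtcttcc
Ndufa8, chr2:36049339-36049408, minus strand: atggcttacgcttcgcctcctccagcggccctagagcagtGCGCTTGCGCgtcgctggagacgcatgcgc
Ndufaf4, chr4:24897930-24898019, plus strand: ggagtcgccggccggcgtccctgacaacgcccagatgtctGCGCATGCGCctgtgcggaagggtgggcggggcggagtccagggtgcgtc
The motif began at base -17 of Atp5c1, -50 of Atp5k, -30 of Ndufa8 and -113 of Ndufaf4, counted from the start of the gene. The ETS motif CCGGAAG was in 24.3% of member promoters against 9.93% of all, the YY1 motif AAGATGGC in 13.5% against 3.19%, and the nuclear receptor motif TGACCTTG in 5.41% against 1.76%, each on either strand. By response in villus, 6 of 27 members that rose at day 8 held the NRF1 motif (22.2%), 9 of 37 that rose at day 91 (24.3%) and 8 of 29 that rose at neither day (27.6%). A match to the letters is a description of the window and not a binding site.

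The main question was whether the members rose or fell with concentration in each compartment and at each time. For each set of libraries a line over the 7 concentrations, taken as equally spaced steps, was tested. Its value is the log2 change along the fitted line from 0 to 180 ppm. That value can differ from the difference between 180 ppm and untreated libraries, which was tested apart. The test was edgeR's quasi-likelihood test with Benjamini-Hochberg adjustment over all 26365 probes tested and a threshold of 0.1. At day 8, 32 members rose in villus and 0 fell, against 5.86% of all probes that rose and 8.19% that fell. At day 91, 45 rose and 3 fell there, against 17% and 9.27% of all probes. The crypt trend at day 91 had 20 rises and 9 falls, against 10.7% and 7.86% of all probes. That at day 8 had 2 rises and 3 falls, against 3.69% and 5.78% of all probes.

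Because the members were mostly well counted, their shares were also set against those of 9486 probes with a median of at least 10 CPM, 73 of which were members. Of these members 42.5% rose in villus at day 8 against 13.1% of these probes, and 0% fell against 13.6%. For villus at day 91 the shares that rose were 58.9% and 35.2%, and those that fell 2.74% and 15.7%. For crypt at day 91 the shares were close, as 27.4% of the members and 25.2% of the probes rose, and 9.59% and 13.4% fell. For crypt at day 8, 2.74% of the members rose against 8.41% of the probes, and 1.37% fell against 11.7%. The median trend of these members was 0.48 in villus at day 8 against -0.03 for these probes, and 0.65 against 0.32 at day 91. In crypt it was -0.05 against -0.01 at day 8 and 0.11 against 0.13 at day 91.

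Across genes, which are not independent replicates, the trend was also set beside the GC content of the longest annotated transcript. Spearman's rho in villus at day 91 was -0.38 over the 88 members and -0.11 over 26222 probes, and in crypt at day 91 -0.33 and -0.16. At day 8 it was -0.10 and 0.00 in villus and -0.10 and -0.05 in crypt. The part of GC content in the trends was not tested.

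**Figure D1:**
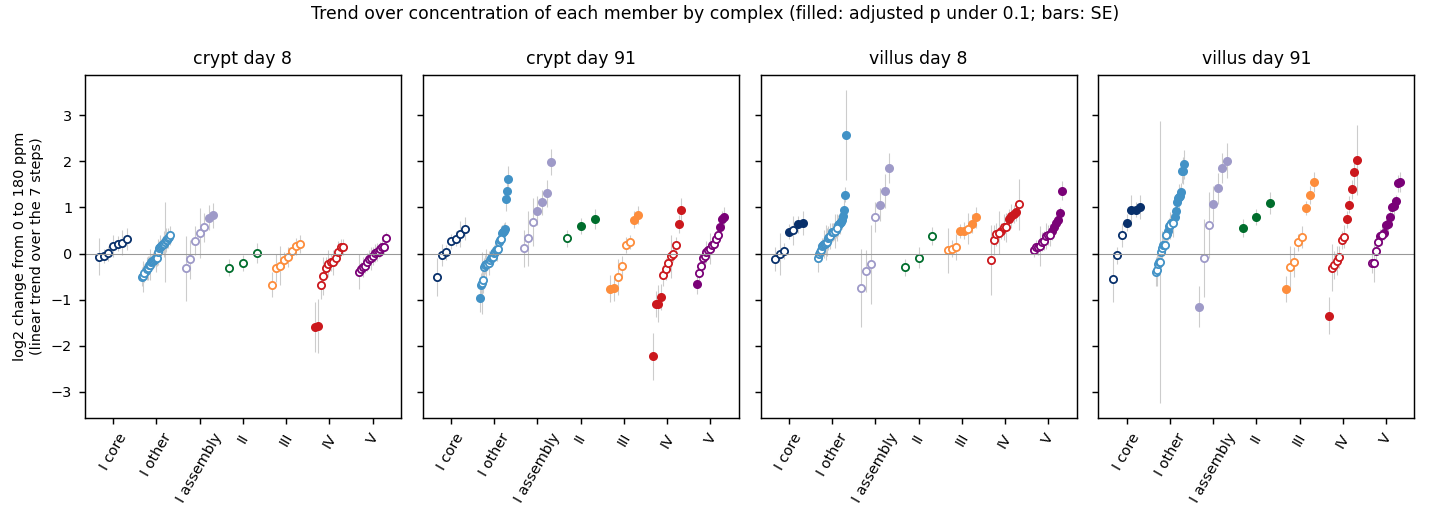
Trend over concentration of the 80 members with over 3 counts in at least 69 libraries, by complex, with 1 panel for each compartment and day. Points give the log2 change along the fitted line from 0 to 180 ppm, with SE bars, and are filled where the adjusted p was under 0.1. In villus at day 8 filled points lie only above 0 (32), and in crypt at day 91 they lie on both sides (20 above and 9 below).

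The median trend of the 88 members in villus at day 8 was 0.45 on the log2 scale, against -0.28 over all probes. Members of every complex but complex II had a trend that passed. Of the core subunits of complex I, which carry its flavin and iron-sulfur centres, 3 of 7 rose, and of its other subunits 11 of 30. Of the assembly factors 3 of 8 rose, of complex III 4 of 8, of complex IV 5 of 15 tested, of complex V 6 of 15, and of complex II 0 of 4. At an unadjusted p under 0.05, 37 of the 88 members passed.

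Members named here and below for the smallest p were chosen from these same libraries. That their groups do not overlap follows in part from this choice and is no further support. The share of all probes without overlap was not counted. Ndufb6, an accessory subunit in the membrane arm of complex I, had the smallest p in villus at day 8. Its level in villus at day 8 was 206, 252, 291, 315 and 325 CPM in the 5 untreated libraries and 489.5, 559, 642 and 669.6 CPM in the 4 libraries at 180 ppm. All libraries at 180 ppm were above all untreated ones, and the trend was 1.28 ± 0.16 (SE, log2; edgeR adjusted p = 1.47e-10). Atp5k, the small e subunit of the ATP synthase that takes part in its dimers, was at 63.2, 93.3, 110.2, 115 and 171 CPM without Cr(VI) and at 210.3, 331, 333 and 337 CPM at 180 ppm. The groups again did not overlap, with a trend of 1.37 ± 0.20 (edgeR adjusted p = 4.32e-08).

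Atp5a1, the alpha subunit of the catalytic head of the ATP synthase, was at 757, 921, 1026, 1073 and 1270.0 CPM in untreated villus and at 1269, 1746, 1796 and 2013 CPM at 180 ppm. The lowest treated library lay beside the highest untreated one, and the other 3 were above it, with a trend of 0.88 ± 0.15 (edgeR adjusted p = 1.46e-06). Ndufaf5, which modifies a core subunit during assembly of complex I, was at 3.83, 9.66, 12.7, 16.3 and 19.8 CPM without Cr(VI) and at 34.2, 35.2, 38.3 and 39.6 CPM at 180 ppm. Here too the groups stood apart, and the trend was 1.85 ± 0.33 (edgeR adjusted p = 6.07e-06). Cox7c, a small structural subunit of complex IV, overlapped between the groups, at 88.8, 114, 126, 139 and 153 CPM against 125, 173, 220.2 and 226 CPM, with a trend of 0.89 ± 0.18 (edgeR adjusted p = 0.00015).

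The other members that rose in villus at day 8 had trends of up to 2.58 ± 0.97, for Ndufa5, a matrix-arm subunit of complex I, which has 2 further probes. Of these, 1 was called in the opposite direction (-4.17, edgeR adjusted p = 0.0407), and the other had 0.75 and was not called. Uqcrc2, a core protein of complex III, went from a mean of 374 CPM ± 71.1 (SD, n = 5) to 543 ± 152 (n = 4), and Cox5a, which surrounds the catalytic core of complex IV, from 314 ± 57 to 511 ± 67.4, and both rose by trend. The catalytic beta subunit Atp5b and the membrane-arm subunit Ndufb8 also rose, by 0.66 ± 0.17 and 0.48 ± 0.18. Complex II had no trend that passed: Sdha, its flavin subunit, had a trend of -0.30 ± 0.18, Sdhd, which anchors the complex in the membrane, -0.09 ± 0.23 and Sdhc, the other anchor, 0.38 ± 0.20, and none passed.

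**Figure D2:**
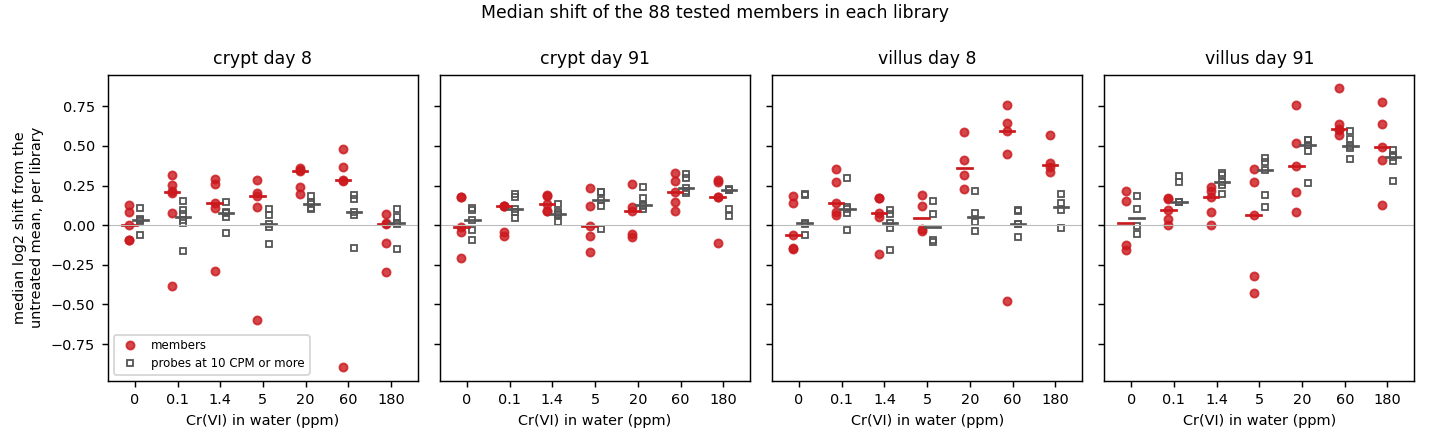
Median log2 shift of the members in each library against the mean of the untreated libraries of the same compartment and day, by concentration, as filled points, with the median over the 9486 probes of at least 10 CPM as open squares and the group medians as lines. The 4 villus libraries at 180 ppm of day 8 lie at 0.34 to 0.57, above the probes' median of 0.12, and 1 library at 60 ppm lies at -0.48.

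Library by library, the median shift of the members against the untreated mean in villus at day 8 was -0.15 to 0.18 in untreated mice, 0.23 to 0.59 at 20 ppm and 0.34 to 0.57 at 180 ppm. At 60 ppm it reached from -0.48 to 0.76, and the lowest value belonged to mouse 447, whose villus library had the smallest total of the series. The median over the 9486 probes was 0.05 at 20 ppm, 0.01 at 60 ppm and 0.12 at 180 ppm. Crypt libraries of the same mouse 447 and of mice 129 (0.1 ppm) and 289 (5 ppm) also stood low, at -0.89, -0.39 and -0.60. Without these 3 mice, an alternative chosen after the data were seen, 35 members rose and 0 fell in villus at day 8, and 4 rose and 3 fell in crypt at day 8. These mice were picked out by the members' own low shift, so counts without them describe how much the results rest on them and are no independent support. Shares of all probes called in that fit are not given.

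Markers differed in these libraries as well. The crypt library of mouse 447 had the lowest enterocyte sum (5645 CPM against up to 35500 in its group) and the highest smooth muscle and stromal sum (4695 CPM against a median of 1662), and that of mouse 289 had the lowest enterocyte sum at 5 ppm, 10750 CPM against a median of 34890. In villus, mouse 447 was highest at 60 ppm in crypt markers (6429 CPM against a median of 640.3) and in smooth muscle and stromal markers (2574 against 721.9) and lowest in enterocyte markers (38080 against 51450). The crypt library of mouse 129 had the highest immune sum at 0.1 ppm, 7846 CPM against a median of 5511. Its enterocyte sum, 32740 CPM, lay inside the range of its group, 26910 to 45330 CPM. The marker classes did not move alike in these crypt libraries. Smooth muscle and stromal sums were the lowest of their groups in mice 129 and 289 (1618 and 1243 CPM), opposite to mouse 447. Crypt marker sums were also lowest in mice 129 and 289 (4431 and 3546 CPM) and highest in mouse 447 (15560 CPM). The part of these markers in the members' low shift was not tested.

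Markers of cell types moved in the same libraries. Of 12 villus enterocyte markers, 6 fell and 0 rose with concentration in villus at day 8, and their summed level was 45490 to 91360 CPM in untreated libraries and 28720 to 59910 at 180 ppm. Of 14 immune markers 7 fell and 0 rose, with sums of 5080 to 8510 CPM and 2538 to 5601 CPM, and of 11 crypt markers 3 fell and 0 rose. Pancreatic acinar genes, which are foreign to the duodenum, were present at 2549 to 50460 CPM without Cr(VI) and 1541 to 16460 CPM at 180 ppm, with 0 of 17 called. The part of these markers in the members' rise was not tested. In such scraped tissue, more cells of a type and more RNA per cell cannot be told apart.

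At day 91 the rise in villus covered more members, and so did that of all probes. The median trend was 0.62 for the members and 0.42 for all probes. By median shift from the untreated mean, the members lay below the 9486 probes of at least 10 CPM at 0.1, 1.4, 5 and 20 ppm. Their group medians there were 0.10 against 0.15, 0.18 against 0.27, 0.06 against 0.35 and 0.37 against 0.51. At 60 and 180 ppm the members lay above, at 0.61 against 0.50 and 0.50 against 0.43. Of the core subunits of complex I 4 of 7 rose, of its other subunits 15 of 30, of the assembly factors 4 of 8, of complex II 3 of 4, of complex III 3 of 8, of complex IV 6 of 15 and of complex V 10 of 15. Scaling by DESeq2 size factors brought all probes to a median of 0.12, the members to 0.29 and the members' calls to 30 up and 9 down. The share of all probes called with that scaling is not given. Depth also differed, with totals of 1667014 to 2678299 counts in untreated villus libraries of day 91 and 3030885 to 4574064 at 180 ppm. Every untreated library was thus shallower than every library at 180 ppm. Calls with the total count as a covariate are given at the end, and the part of depth in the rise cannot be read from these values alone.

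Cell type markers moved in these villus libraries of day 91 too. Of 12 enterocyte markers 2 rose and 6 fell, and their summed level was 63000 to 85660 CPM without Cr(VI), 124200 to 188900 at 20 ppm and 33590 to 98770 at 180 ppm. Goblet and enteroendocrine markers, of which 3 rose and 2 fell of 7, summed to 1260 to 2513 CPM without Cr(VI), 4637 to 5204 at 60 ppm and 2720 to 4892 at 180 ppm. Of 14 immune markers 4 rose and 5 fell, with sums of 3865 to 7736 CPM without Cr(VI), 8348 to 17070 at 20 ppm and 6040 to 10780 at 180 ppm. Of 11 crypt markers 3 rose and 1 fell, and of 12 smooth muscle and stromal markers 3 rose and 4 fell. Pancreatic acinar genes summed to 2620 to 67600 CPM without Cr(VI), 5768 to 240900 at 0.1 ppm and 2775 to 110600 at 180 ppm. The part of these markers in the members' rise was not tested.

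Atp5c1, the gamma subunit that turns inside the catalytic head of the ATP synthase, was at 564, 681, 905 and 944 CPM in the 4 untreated villus libraries at day 91 and at 1256, 1504, 2129, 2168 and 2399 CPM in the 5 at 180 ppm. The groups did not overlap, and the trend was 1.52 ± 0.18 (edgeR adjusted p = 1.16e-11). Atp5a1 was at 707, 767, 950.5 and 974 CPM without Cr(VI) and at 1454, 1741, 1940.0, 1948 and 1988 CPM at 180 ppm, a trend of 1.13 ± 0.15 (edgeR adjusted p = 2.3e-10). Atp5e, the epsilon subunit of the central stalk, was at 209, 234, 354 and 416 CPM and at 439.9, 481, 643, 685 and 906 CPM, a trend of 1.56 ± 0.21 (edgeR adjusted p = 1.26e-09). In all 3 of these ATP synthase subunits, chosen by the smallest p in this trend, every library at 180 ppm was above every untreated one.

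In complex I, Ndufb6 was at 188, 282, 299.5 and 300.0 CPM in untreated villus at day 91 and at 421, 482, 508, 521 and 523 CPM at 180 ppm, with a trend of 1.20 ± 0.16 (edgeR adjusted p = 6.99e-10). Ndufa8, a subunit imported into the space between the membranes, was at 114, 138, 199 and 219.6 CPM and at 242, 326, 353, 354 and 601 CPM, with a trend of 1.78 ± 0.24 (edgeR adjusted p = 7.53e-10). Neither overlapped between the groups, and the treated library at 601 CPM stood above the rest. Ndufs1, the largest core subunit, was counted at only 6.04 to 10.7 CPM on average in the villus groups of day 91 and had a trend of -0.55 ± 0.50, which did not pass.

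The 3 members that fell in villus at day 91 were Cox8a, Uqcrfs1 and Ndufaf3. Cox8a, the ubiquitous form of a small complex IV subunit, was at 23.4, 25.6, 26.4 and 26.9 CPM without Cr(VI) and at 4.62, 5.18, 9.86, 23.3 and 26.6 CPM at 180 ppm, so that 1 treated library lay inside the untreated range and another just under it (trend -1.35 ± 0.41, edgeR adjusted p = 0.00772). Uqcrfs1, the Rieske iron-sulfur protein of complex III, was at 68.8, 80.7, 89.3 and 114 CPM and at 33.2, 42.9, 65.1, 74 and 79.8 CPM, an overlap as well (trend -0.76 ± 0.28, edgeR adjusted p = 0.0381). Ndufaf3, an early assembly factor of complex I, was at 14.5, 16.5, 29.8 and 51.7 CPM against 3.83, 4.23, 9.08, 10.7 and 14.2 CPM, with no overlap (trend -1.15 ± 0.44, edgeR adjusted p = 0.0459).

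By trend, 3 of the 4 complex II subunits rose in villus at day 91, and none had passed at day 8. Sdha went from 488 CPM ± 80.3 (SD, n = 4) in untreated villus to 974.5 ± 156 with 5 ppm, 1168 ± 211 with 20 ppm, 1008 ± 78.7 with 60 ppm and 679.8 ± 133 with 180 ppm (n = 5 each). Its level was therefore highest at the middle concentrations, and the highest concentration stood below them. The trend was 0.79 ± 0.18, with 1.10 ± 0.24 for Sdhd and 0.56 ± 0.20 for Sdhc. The 3 other probes for Sdha had villus trends of -0.51, 0.00 and 0.19 at day 91 and were not called, so the rise was seen by 1 probe of 4. The other probe for Sdhc had -0.47 and was not called either. At 180 ppm against untreated, 0 of the 4 subunits were called in villus at day 91.

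**Figure D3:**
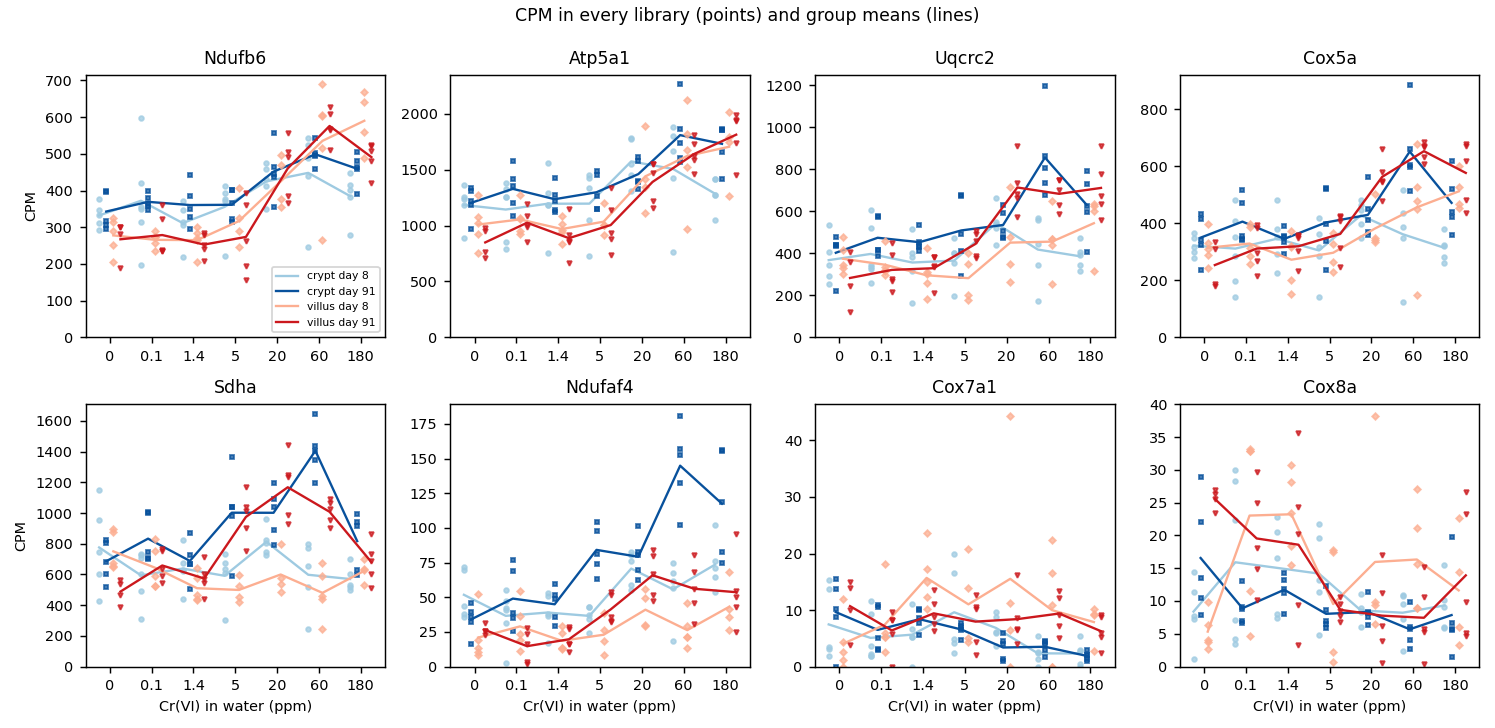
Levels in CPM of 8 members in each library (points) by Cr(VI) concentration in ppm, for both compartments and both days, with group means as lines. Ndufb6 and Atp5a1 in villus lie higher at the upper concentrations on both days, and Sdha in villus at day 91 is highest at 20 ppm (mean 1168 CPM) and lower at 180 ppm (679.8 CPM).

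The villus trends of days 8 and 91 come from different mice. Of the 32 members that rose at day 8, 25 also rose at day 91, which is 78.1% of the day 8 list and 55.6% of the day 91 list of 45. The overlap between days was not counted over all probes, so it is not known whether it is particular to the members. These 25 included 6 subunits of the ATP synthase (Atp5a1, Atp5b, Atp5c1, Atp5f1, Atp5j2 and Atp5k), Uqcrb, Uqcrc2 and Uqcrh of complex III, and Cox5a, Cox7b and Cox7c of complex IV. A test of the difference between the days called 12 members in villus, of which 11 had the higher trend at day 91 and Cox8a the lower. Of all probes 9.17% were called, 7.78% with the higher trend at day 91 and 1.39% with the lower. Sdha differed by 1.09 ± 0.25 and Atp5e by 1.28 ± 0.30 (edgeR adjusted p = 0.00354 for both), followed by Sdhd with 1.19 ± 0.33 (edgeR adjusted p = 0.0175). With DESeq2 size factors the same test called 5 members higher and 6 lower at day 91, so the prevailing direction among the members depended on the scaling. The shares of all probes with that scaling are not given.

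Crypt at day 91 held rises and falls. The median trend of the members was 0.09, beside 0.04 over all probes. Of the assembly factors of complex I 4 of 8 rose, of its other subunits 7 of 30 rose and 2 fell, and of its core subunits 0 of 7 passed. In complex II 2 of 4 rose, in complex III 2 rose and 2 fell of 8, in complex IV 2 rose and 4 fell of 15, and in complex V 3 rose and 1 fell of 15. With DESeq2 size factors 17 rose and 15 fell and the median was -0.10, while that of all probes was -0.14. The share of all probes called is not given for that scaling.

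Ndufaf4, an assembly factor of complex I, led the rises in crypt at day 91, at 16.5, 32.1, 35.8, 39.6 and 45.8 CPM in untreated libraries and 74.4, 82.3, 119, 156 and 156 CPM at 180 ppm (trend 1.99 ± 0.27, edgeR adjusted p = 5.89e-09). Ndufa8 was at 119, 207, 241, 257 and 275 CPM and at 317, 367, 519, 552 and 558 CPM (trend 1.37 ± 0.22, edgeR adjusted p = 6.63e-07). Ndufc2, an accessory subunit of the membrane arm, was at 56, 66.5, 68.2, 90.2 and 102 CPM and at 114, 166, 236, 269 and 305 CPM (trend 1.63 ± 0.28, edgeR adjusted p = 2.73e-06). The groups did not overlap in any of these 3 members, which were chosen by the smallest p in this trend.

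Ndufab1, the mitochondrial acyl carrier protein that is also a complex I subunit, was at 51.6, 85.5, 87.9, 101 and 120.0 CPM in untreated crypt and at 107, 163, 186, 187 and 225 CPM at 180 ppm (trend 1.19 ± 0.26, edgeR adjusted p = 0.000269). Ndufaf6, an assembly factor, was at 18.9, 23.6, 35.2, 43 and 45.2 CPM and at 44.7, 68.1, 78.5, 82.4 and 87.7 CPM (trend 1.31 ± 0.29, edgeR adjusted p = 0.000375). In each of these the lowest treated library fell inside the untreated range and the rest were above it. Cox7a1, the heart and muscle form of a complex IV subunit, moved the other way, at 0, 8.73, 10.2, 13.7 and 15.6 CPM against 0.898, 1.38, 2.12, 2.12 and 2.89 CPM (trend -2.23 ± 0.51), with 1 untreated library at 0.

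The other members that fell in crypt at day 91 were Ndufb11 and Ndufs6 of complex I, Uqcrfs1 and Uqcrq of complex III, Cox6a1, Cox7a2l and Cox8a, which belong to complex IV or to its links with complex III, and Atp5o of the stalk of the ATP synthase. Their trends ran from -0.66 ± 0.22 for Atp5o to -1.10 ± 0.29 for Cox7a2l. Smooth muscle and stromal markers fell in 8 of 12 cases and rose in 0 in the same crypt libraries, with sums of 1407 to 2249 CPM without Cr(VI) and 1187 to 1855 CPM at 180 ppm. Their part in the values of Cox7a1 was not tested. Enterocyte markers fell in 5 of 12 cases, immune markers in 6 of 14, and acinar genes reached 186900 CPM in 1 untreated crypt library of day 91.

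All 20 members that rose in crypt at day 91 were among the 45 that rose in villus at day 91, which is 44.4% of the latter, and both compartments came from the same mice. Of all tested members 51.1% rose in villus at day 91. The same overlap was not counted over all probes, so it is not known whether it is particular to the members. Cox8a and Uqcrfs1 fell in both, while Ndufs6, a zinc-binding complex I subunit, fell in crypt by 0.68 ± 0.27 on the log2 scale and rose in villus by 0.91 ± 0.32. The members that rose in crypt at day 91 and in villus at both days were 13 in number: Atp5a1, Atp5c1, Cox5a, Uqcrb, Uqcrc2, Ndufa8, Ndufa9, Ndufa10, Ndufb5, Ndufb6, Ndufaf1, Ndufaf5 and Ndufaf6. They take in complexes I, III, IV and V and 3 assembly factors of complex I.

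**Figure D4:**
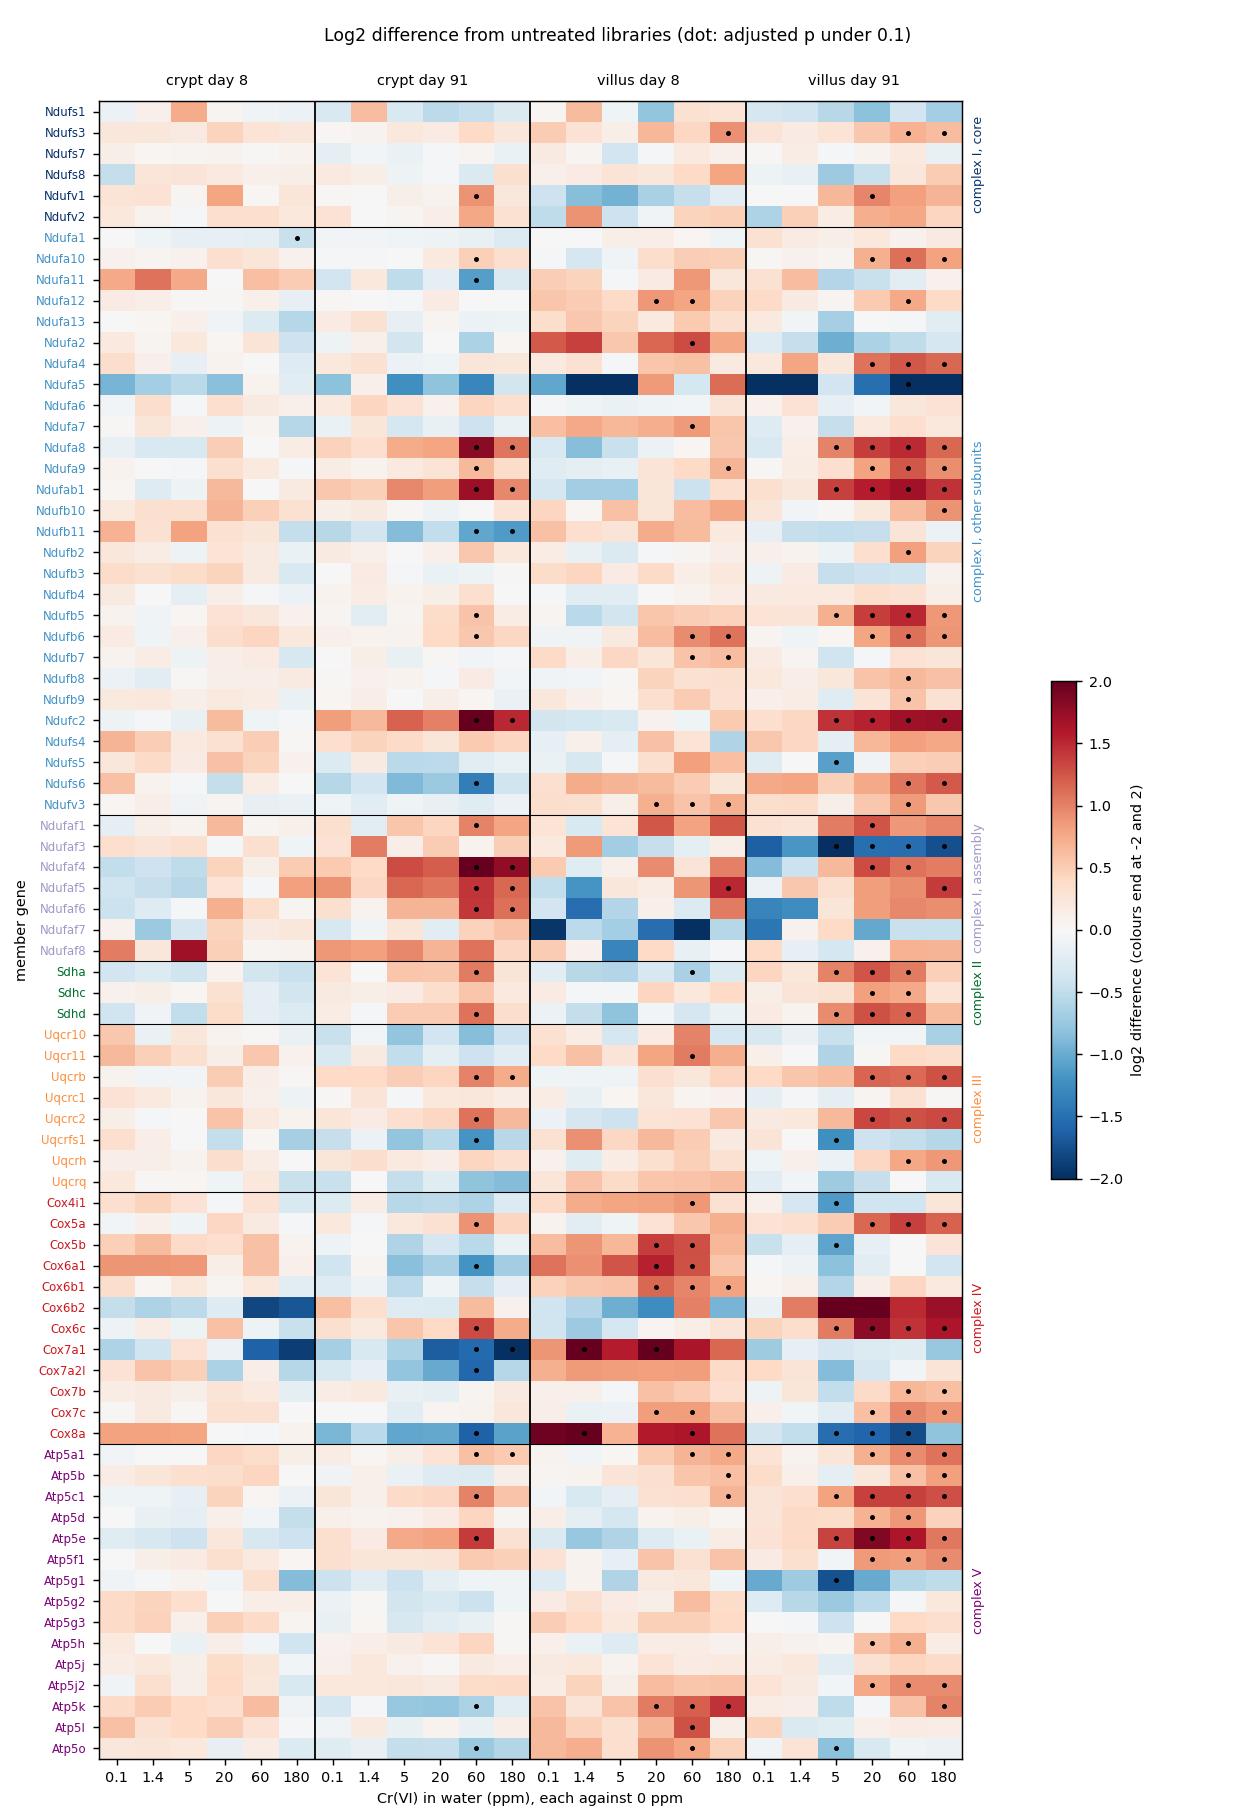
Fitted log2 difference from the untreated group for 79 members with over 3 counts in at least 69 libraries, by concentration, compartment and day, with members ordered by complex and dots where the adjusted p was under 0.1. Rises in villus lie mostly at 20 ppm and above, and crypt at day 91 shows rises and falls at 60 and 180 ppm.

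Few members were called by trend in crypt at day 8. The members' median shift per library was -0.10 to 0.13 in untreated mice and 0.20 to 0.36 at 20 ppm. At 60 ppm its group median was 0.28, with the lowest library at -0.89, and at 180 ppm it was 0.01. Over the 9486 probes of at least 10 CPM the group medians were 0.14, 0.08 and 0.01 at these concentrations. A line over the steps may miss such a course, which goes up and back. Ndufa1, a small membrane-arm subunit of complex I, was at 576, 683, 684, 702 and 748 CPM in untreated libraries and at 412, 448, 449, 582 and 597 CPM at 180 ppm, with 2 treated libraries above the lowest untreated one (trend -0.39 ± 0.12, edgeR adjusted p = 0.0277). Ndufaf5 was at 17.3, 20.8, 26.5, 26.6 and 38 CPM and at 27.5, 35.1, 43.6, 48.1 and 74.9 CPM (trend 0.83 ± 0.26, edgeR adjusted p = 0.0359). Ndufaf4 was at 36, 37.8, 43.5, 69.8 and 71.6 CPM and at 53.8, 64.6, 71.1, 75.8 and 102 CPM (trend 0.78 ± 0.27, edgeR adjusted p = 0.0659). Both assembly factors overlapped between the groups. The other members that fell were Cox6b2, the testis form of a complex IV subunit, by 1.60 ± 0.55 (edgeR adjusted p = 0.0548), and Cox7a1, by 1.57 ± 0.58 (edgeR adjusted p = 0.0861). Cox6b2 was at 0, 6.07, 10.3, 11.4 and 20.1 CPM without Cr(VI) and at 0, 1.77, 2.46, 2.53 and 6.42 CPM at 180 ppm, and Cox7a1 at 1.8, 3.08, 3.44, 13.7 and 15.3 CPM against 0, 0.459, 2.79, 2.84 and 5.46 CPM. In both the groups overlapped, and 1 treated library was at 0. Further probes of Cox6b2 had trends of -0.34 and 0.31 in crypt at day 8 and were not called. In villus at day 91 Cox6b2 went the other way and rose by 2.02 (edgeR adjusted p = 0.0412). A further probe rose there by 4.44 (edgeR adjusted p = 0.0366), and the last one was not called.

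These counts at day 8 in crypt were small beside 13 members at an unadjusted p under 0.05. Leaving out the untreated mouse 49 gave 2 rises and 1 fall, leaving out mouse 528 or 530 of the 180 ppm group gave 2 rises with 0 falls or 1 fall, and without both mice 48 and 49 there were 0 rises and 1 fall. In the same libraries 8 of 12 enterocyte markers and 9 of 14 immune markers fell with concentration. The enterocyte sum was 28020 to 71980 CPM without Cr(VI) and 9718 to 18400 CPM at 180 ppm, and its part in the members' values was not tested.

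Each concentration was also tested against the untreated mice of the same compartment and day, so that the comparisons within a set share their untreated libraries. In villus at day 8 nothing was called at 0.1 ppm or 5 ppm, at which 0% and 0.357% of all probes were called, and 9 and 14 members were under an unadjusted p of 0.05 by edgeR. Cox8a and Cox7a1 rose at 1.4 ppm (1.52% of all probes). At 20 ppm 8 members rose (2.61%), led by the complex IV subunits Cox6b1 (edgeR adjusted p = 0.00515) and Cox5b (1.38 ± 0.32, edgeR adjusted p = 0.0094). At 60 ppm 17 rose and Sdha fell (6.58%), and at 180 ppm 11 rose and 0 fell (5.97%). Of 11 further probes of members called at 60 ppm, 6 had the same direction, 1 of them called.

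At 180 ppm in villus at day 8 the smallest p values belonged to Atp5k (1.44 ± 0.25, edgeR adjusted p = 2.23e-05), Ndufb6 (1.09 ± 0.20, edgeR adjusted p = 5.76e-05) and Atp5a1 (0.76 ± 0.18, edgeR adjusted p = 0.00438). Without mice 129, 289 and 447 the 1.4 ppm comparison gave 3 rises and 2 falls, 5 ppm gave 3 rises, 20 ppm gave 14, 60 ppm gave 32 and 180 ppm gave 17. The shares of all probes called without these mice are not given, so these counts do not show whether the members changed more than all probes. The count at 180 ppm also rested on single untreated libraries, with 6 rises when mouse 46 was left out and 7 when mouse 49 was.

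The calls in villus at day 91 began at 5 ppm. At 0.1 and 1.4 ppm 0 members were called by edgeR (0.0341% of all probes at each), with 3 and 5 under an unadjusted p of 0.05. At 5 ppm 9 members rose and 8 fell (10.9% of all probes), and Atp5e (1.35 ± 0.27, edgeR adjusted p = 0.000518) and Sdha (edgeR adjusted p = 0.00232) led the rises, while Cox4i1, the main form of the subunit that starts complex IV assembly, fell by 1.13 ± 0.32 (edgeR adjusted p = 0.0154). Of 6 further probes of members called at 5 ppm, 1 had the same direction and was called, and 1 was called in the opposite direction. At 20 ppm 27 rose and 2 fell (14.7%), at 60 ppm 35 rose and 3 fell (15.5%) and at 180 ppm 27 rose and 1 fell (13.8%). At 180 ppm Atp5a1 led with 1.09 ± 0.19 (edgeR adjusted p = 5.36e-06), followed by Atp5c1 with 1.29 ± 0.24 (edgeR adjusted p = 1.54e-05) and Uqcrb, a small subunit at the quinone site of complex III, with 1.28 ± 0.25 (edgeR adjusted p = 6.65e-05), and Ndufaf3 fell by 1.76 ± 0.54 (edgeR adjusted p = 0.0188).

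Uqcrc2 and Cox5a give the course over concentration in villus at day 91. Uqcrc2 was at 283 CPM ± 126 (SD, n = 4) without Cr(VI), 445 ± 59.4 with 5 ppm, 713 ± 126 with 20 ppm and 683 ± 72.9 with 60 ppm, and its libraries at 180 ppm were at 558, 637, 673, 776 and 912 CPM. Cox5a was at 253 ± 80.4, 362.5 ± 80.5, 562 ± 65.4, 652 ± 32.3 and 576 ± 112 CPM at the same concentrations. From 20 ppm on, the group means of Uqcrc2 differed by less than their SDs, and in Cox5a the group at 60 ppm was the highest.

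In crypt at day 91 nothing was called up to 20 ppm, where 0%, 0%, 0.00379% and 0.535% of all probes were called at 0.1, 1.4, 5 and 20 ppm and 2, 2, 17 and 13 members were under an unadjusted p of 0.05 by edgeR. At 60 ppm 21 members rose and 10 fell (14.5% of all probes), and at 180 ppm 8 rose and 2 fell (6.49%). Sdha shows the step back, with 686 CPM ± 129 without Cr(VI), 1405 ± 162 at 60 ppm and 817 ± 187 at 180 ppm (n = 5 each). Its 3 other probes had crypt trends of -0.35, -0.15 and -0.13 at day 91. At 180 ppm Ndufaf4 (1.78 ± 0.35, edgeR adjusted p = 0.000178), Ndufc2 (edgeR adjusted p = 0.00281) and Ndufa8 (1.07 ± 0.28, edgeR adjusted p = 0.00784) led. Without the untreated crypt mouse 3 the counts at 180 ppm were 4 up and 1 down, and without mouse 490 of the 180 ppm group 5 up and 1 down.

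For crypt at day 8 the single concentrations called 0 members by edgeR from 0.1 to 60 ppm, at which 0.0152%, 0.00379%, 0.0152%, 0.247% and 2.14% of all probes were called in order of concentration. Between 3 and 10 members were under an unadjusted p of 0.05 there. At 180 ppm Ndufa1 alone was called, with -0.45 ± 0.15 (edgeR adjusted p = 0.091), against 4.13% of all probes, and the call held in only 1 of 10 fits that left out a library. Without mice 129, 289 and 447 the 60 ppm comparison gave 5 rises and the 180 ppm comparison gave 0 calls, and the shares of all probes are not given.

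Whether the compartments differ in their trend was tested directly, as was the difference between days given above, and both tests were added after the trends had been seen. At day 8, 3 members had a higher trend in villus than in crypt, Atp5k by 1.35 ± 0.28 (edgeR adjusted p = 0.00903), Ndufb6 by 0.93 ± 0.22 (edgeR adjusted p = 0.0419) and Cox6b1 by 1.06 ± 0.27 (edgeR adjusted p = 0.0817), against 0.205% of all probes called in this test. At day 91, 7 members did, Atp5k, Ndufs6, Uqcrh, Cox7c, Ndufb5, Ndufa9 and Ndufa4, against 2.14% of all probes. At either day 0 members had a higher trend in crypt. Over all probes, 1.87% were called higher in villus and 0.269% higher in crypt at day 91, so most called probes shared that direction. At day 8 these shares were 0.118% and 0.0872%. Atp5k, with 1.22 ± 0.28 (edgeR adjusted p = 0.00507), was called at both days, and its crypt trends were 0.02 ± 0.19 and -0.43 ± 0.19. With the mouse as a block the day 91 test called 21 members, all with a higher trend in villus, against 4.81% of all 23431 probes of that fit.

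For 180 ppm alone the test of the compartment difference called 0 members by edgeR at both days, against 0.00379% and 0.224% of all probes. At an unadjusted p under 0.05 there were 16 members at day 8 and 15 at day 91, and DESeq2 called 1 at each day. The mouse as a block gave 1 call at each day, against 0.571% and 0.836% of all probes. Between the days, the crypt trend differed for 3 members, Ndufc2 (1.49 ± 0.39), Atp5e (0.99 ± 0.28) and Sdha (0.81 ± 0.24), against 0.975% of all probes. Each was higher at day 91, as were most probes called in this test (0.907% of all probes higher, 0.0683% lower). The 3 other probes for Sdha had crypt trends of -0.70, -0.08 and -0.03 at day 8 and -0.35, -0.15 and -0.13 at day 91.

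Untreated crypt and villus were compared to give the members' levels without exposure. At day 8, 0 members were called by edgeR, against 0.637% of all probes, with 7 under an unadjusted p of 0.05 and 2 called by DESeq2. At day 91, 6 were higher and 1 was lower in crypt, against 10.9% of all probes. Ndufb5, a membrane-arm subunit of complex I, was at 187, 204, 212, 213 and 237 CPM in crypt and at 80.8, 108, 119 and 119.7 CPM in villus (0.98 ± 0.25, edgeR adjusted p = 0.00521). Ndufa9, which stabilises the joint of the arms of complex I, was at 438, 449, 488, 553 and 577 CPM in crypt and at 236, 274, 279 and 362 CPM in villus (0.80 ± 0.22, edgeR adjusted p = 0.013). Both stood apart without overlap. Ndufaf3 was lower in crypt, at 0, 4.37, 6.12, 13.8 and 14.1 CPM against the villus values above (-1.77 ± 0.52, edgeR adjusted p = 0.02). With the mouse as a block 11 were higher and 1 was lower, against 15.1% of all probes called. Leaving out the villus libraries of mouse 3, 5 or 7 gave 3 up and 1 down, 3 up and 0 down, or 11 up and 1 down.

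Averaged over the 7 concentrations, with each weighted equally, 14 members were higher and 15 lower in crypt than in villus at day 8, against 24.1% and 11.7% of all probes. At day 91, 27 were higher and 6 lower, against 22.8% and 13.5%. The median difference of the members was 0.00 at day 8 and 0.10 at day 91, beside 0.29 and 0.15 over all probes. Of the assembly factors of complex I, 5 of 8 were higher in crypt and 0 lower at both days. Ndufaf6 was higher by 0.91 ± 0.17 on day 8 (edgeR adjusted p = 3.14e-06) and by 1.37 ± 0.16 on day 91 (edgeR adjusted p = 5.24e-13), Ndufaf4 by 0.85 ± 0.14 and 1.02 ± 0.14, and Ndufaf5 by 0.79 ± 0.15 and 0.69 ± 0.14. Ndufa9 had 0.55 ± 0.08 at day 91 (edgeR adjusted p = 2.69e-09).

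In complexes III and IV at day 8, 2 of 8 and 4 of 15 were lower in crypt, and 0 and 1 higher. Uqcrfs1 was lower in crypt by 0.60 ± 0.13 at day 8 and 0.43 ± 0.13 at day 91, Cox7a1 by 0.90 ± 0.25 and 0.72 ± 0.24, and Ndufa1 by 0.29 ± 0.06 and 0.26 ± 0.06. Marker genes gave the order of the compartments their labels state: 10 of 11 crypt markers were higher in crypt at both days, and 10 and 11 of 12 enterocyte markers were lower there. Smooth muscle and stromal markers were also higher in crypt, 11 of 12 at each day. With the total count as a covariate the averaged comparison changed to 6 higher and 32 lower at day 8 and 13 higher and 24 lower at day 91, so the counts in each direction depended on that term.

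Between the days in untreated mice, 0 members were called in crypt by edgeR (5 under an unadjusted p of 0.05), against 0.0379% of all probes. In villus Cox8a alone was higher at day 91, by 2.21 ± 0.58 (edgeR adjusted p = 0.0319), against 2.44% of all probes. Leaving out the villus library of mouse 48 (day 8) or mouse 5 (day 91) ended that call. Age, time on study and handling cannot be told apart in these values.

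Isoforms of complex IV and of the ATP synthase were described by their own probes. Cox4i1 was at 103 CPM ± 42.6 in untreated crypt at day 8 and at 128 ± 20.3 in untreated villus at day 91, and none of its 4 trends passed. The oxygen-responsive isoforms Cox4i2 and Ndufa4l2 had over 3 counts in few libraries and gave no calls in these trends. Ndufa4, which the counts by complex hold under complex I, rose in villus at day 91 by 1.24 ± 0.27 and had a trend of 0.34 ± 0.27 in villus at day 8. Among the 3 genes for the c ring of the ATP synthase, which encode the same mature protein, Atp5g1, Atp5g2 and Atp5g3 had villus trends at day 91 of -0.20 ± 0.42, 0.24 ± 0.22 and 0.39 ± 0.20, and none was called. In the averaged comparison at day 91, Atp5g1 and Atp5g2 were higher in crypt by 0.52 ± 0.18 and 0.57 ± 0.10, and Atp5g3 had -0.09 ± 0.09. Cox7a2 was called in villus at day 91, but its counts in the 4 untreated libraries were 0 and those at 180 ppm were 1, 6, 9, 17 and 31, so no fold is given.

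Further probes of the same genes give a check within the libraries. For villus at day 8, 14 of 16 further probes of called members had the same direction, 7 of them called, and 1 was called in the opposite direction. For villus at day 91, 15 of 23 had the same direction, 11 of them called, and 1 probe of Ndufv1 was called in the opposite direction with -0.66. For crypt at day 91, 5 of 10 had the same direction, 1 of them called. Some members that were not called had a further probe that was. In crypt at day 91 such probes rose for Ndufs1 (2.63) and Atp5f1 (0.60). They fell there for Ndufa1 (-0.94), Ndufv2 (-0.97), Sdhc (-0.83) and Uqcrc1 (-1.67). In villus at day 8 such a probe of Ndufs7 fell (-2.78). These probes of Ndufs1 and Ndufs7 had only 1146 and 1306 counts in total. The further probe of Atp5a1 had trends of 0.37 in crypt at day 91, 0.81 in villus at day 8 and 1.05 in villus at day 91, each called, and that of Ndufb6 had 0.15, 1.12 and 0.88.

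Other genes of the pathway were read from lists. Of the 13 subunits encoded in mitochondrial DNA, 8 were tested. In villus at day 8, 1 rose (mt-Nd6, 0.76, edgeR adjusted p = 0.00122) and 1 fell (mt-Nd3, -1.08, edgeR adjusted p = 0.0321), and at day 91 1 rose (mt-Cytb, 0.94, edgeR adjusted p = 0.00221). In crypt 1 fell at day 8 (mt-Nd4, -0.66, edgeR adjusted p = 0.0823) and 0 were called at day 91. Averaged over concentrations 0 were higher and 3 lower in crypt at day 8, and 0 higher and 6 lower at day 91, with mt-Nd4, mt-Nd2 and mt-Atp8 each at -0.55.

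Assembly factors outside the naming rule numbered 40 tested, of which 5 rose and 1 fell in villus at day 8 and 12 rose and 3 fell at day 91, while 21 were higher and 2 lower in crypt at each day. Sco2, a copper chaperone of complex IV, fell in crypt at day 91 and in villus at days 8 and 91, with trends of -1.74, -2.46 and -3.14. Of 16 genes for cytochrome c and for coenzyme Q and its making, 2 rose and 1 fell in villus at day 8 and 4 rose and 2 fell at day 91. Of 19 genes of the TCA cycle and pyruvate dehydrogenase, 7 rose and 2 fell in villus at day 8, 13 rose and 1 fell at day 91, 8 rose in crypt at day 91 and 1 fell in crypt at day 8. Of 30 genes of glycolysis and lactate, 8 rose and 5 fell in villus at day 8 and 12 rose and 6 fell at day 91. Of 10 carriers of nucleotides and phosphate, 4 rose and 1 fell in villus at day 8 and 5 rose and 1 fell at day 91. Of 17 regulators of mitochondrial biogenesis, 3 rose and 2 fell in villus at day 8 and 2 rose and 1 fell at day 91, against 17% and 9.27% of all probes at day 91. The other lists of this paragraph stand beside the shares given before them. Ppargc1a, the coactivator known for driving mitochondrial biogenesis, fell in all 4 sets, with trends of -1.99 and -1.66 in crypt and -1.57 and -2.04 in villus at days 8 and 91.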

How the data were processed

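Crypt and villus of the duodenum of female mice were profiled by TempO-Seq, and the authors deposited raw read counts per probe for each library. The submitters' processing notes name bcl2fastq 2.17.1.14 and Bowtie, and each probe was counted as it stands. Groups were taken from the labels, in which the libraries of a group are separate mice. Mouse 90, labelled 0.1 ppm at day 8, has a number outside the run of numbers of that group, which has 6 crypt libraries, and its label was followed. Depth differed between libraries by up to about the ratio of 7199801 to 1463938 counts, and low-count members are less precise.

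All libraries entered 1 fit of 28 groups in edgeR 4.0.16 (R 4.3.3), with filterByExpr, trimmed-mean scaling, the quasi-likelihood test and Benjamini-Hochberg adjustment over 26365 probes at a threshold of 0.1. Log2 differences used a prior count of 0.125 and logged levels a prior count of 2. DESeq2 1.42.0, other scalings, filters, covariates, summed probes, separate fits, a trend linear in ppm, thinned counts and left-out libraries were tried as alternatives. Thinning and the fit without mice 129, 289 and 447 were added after the data were seen. Among the alternatives, shares of all probes called are given only for the mouse as a block. The tests were checked on simulated counts with known changes in villus at day 8. The trend recovered 38 of 100 probes changed 2-fold and 84 of 100 changed 4-fold, with 11 other probes called. For 180 ppm against untreated 19 and 72 of 100 were recovered, with 13 other probes called. A member that was not called can therefore still have changed.

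The members and all gene lists were chosen with earlier results of these data known. Named with values are indicator subunits of each complex, isoform pairs, the 5 members with the smallest p in each trend, the 3 with the smallest p in the other comparisons, and up to 5 called against the prevailing direction. Crypt and villus of 66 mice come from the same animal, so the mouse numbers pair them. The correlation of their deviations from the group means over 9034 probes was -0.19 to 0.631, with a median of 0.18, and was over 0.1 in 45 mice. All 90 members matched RefSeq names. The values of 1 member are not reported here.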

Additional observations from a re-analysis of the deposited data

Results flagged for a closer look

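In 81 examinations for a library standing apart, each of 1 group of 4 to 6 libraries by the members' median shift or by the level of 1 member, 8 had one, where chance gives about 1 in 20. By the median log2 shift of the members, the crypt libraries of mice 129 (0.1 ppm), 289 (5 ppm) and 447 (60 ppm) at day 8 lay at -0.386, -0.6 and -0.892, below the other libraries of their groups, which began at 0.075, 0.116 and 0.282. The villus library of mouse 447 at day 8 lay at -0.477, with the others from 0.448 to 0.757. At day 91, the crypt library of mouse 488 (180 ppm) lay at -0.113, with the others from 0.178 to 0.288, and the villus library of mouse 406 (60 ppm) lay highest, at 0.863, with the others from 0.567 to 0.637. Atp5k in villus at day 8 was at 210.3 CPM in mouse 526 (180 ppm), with the others from 330.6 to 336.6 CPM. Ndufb6 in untreated villus at day 91 was at 187.8 CPM in mouse 5, with the others from 281.6 to 300.0 CPM.

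The trend differed between villus and crypt at day 8, in log2 units of villus minus crypt, for Atp5k (1.351), Ndufb6 (0.928) and Cox6b1 (1.057). At day 91 it differed for Atp5k (1.224), Ndufs6 (1.597), Uqcrh (0.746), Cox7c (0.877), Ndufb5 (0.883), Ndufa9 (0.76) and Ndufa4 (1.158). All were positive, so that the trend was higher in villus. Over all probes at day 91, 494 of the 565 called also had the higher trend in villus.

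The trend differed between days in crypt, in log2 units of day 91 minus day 8, for Ndufc2 (1.49), Atp5e (0.988) and Sdha (0.807). In villus it differed for Sdha (1.091), Atp5e (1.283), Sdhd (1.185), Ndufab1 (1.416), Ndufa8 (1.127), Ndufc2 (1.372), Atp5c1 (0.789), Uqcrc2 (0.911), Cox6c (1.213), Ndufv1 (1.122), Uqcrb (0.768) and Cox8a (-1.802), of which Cox8a alone had the lower trend at day 91. All adjusted p came from edgeR's interaction contrasts and lay under 0.1.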

How the results depend on the processing

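Counts are of members called, up and down together unless split, and the cause of a change was not tested. Shares of all probes called in these fits are not given in this section. The counts therefore do not show whether the members changed more than all probes. In the crypt trend at day 8 (5 as reported), DESeq2 called 10, thinned counts 8, a trend linear in ppm 8, and the default form of the edgeR fit and the fit without mice 48 and 49 called 1 each. The crypt trend at day 91 (29) gave 45 when each compartment and day was fitted separately and 11 with a trend linear in ppm. At 180 ppm, crypt at day 8 (1) gave 2 with DESeq2 and 0 with DESeq2 size factors, thinned counts, the default form, no filter, summed probes, without mice 129, 289 and 447, and without mice 48 and 49. Crypt at day 91 (10) gave 4 with the default form and 25 with separate fits, and villus at day 8 (11) gave 17 with DESeq2, 18 with summed probes, 5 with separate fits and 17 without mice 129, 289 and 447. Untreated crypt against villus at day 8 (0) gave 2 with DESeq2 and 1 with DESeq2 size factors, thinned counts, summed probes and without either set of mice, and at day 91 (7) 2 with the total count as covariate. The difference of the 180 ppm effect between compartments (0 at both days) gave 1 with DESeq2 at each day and, at day 8, 1 with thinned counts and 1 without mice 129, 289 and 447. Untreated villus between days (1) gave 8 with DESeq2, 2 with size factors, 4 with thinned counts, 4 with the covariate, 2 with summed probes and 0 without mice 48 and 49.

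The mouse as replicate block gave 12 calls between untreated crypt and villus at day 91 and 1 at day 8, 1 for the 180 ppm difference between compartments at each day, 34 and 43 in the averaged comparison at days 8 and 91 against 29 and 33, and 21 against 7 for the trend difference at day 91. It moved no other count of calls by over 1.5 times.

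With 1 library left out in turn, the calls ranged from 2 to 7 in the crypt trend at day 8, 25 to 30 in crypt at day 91, 26 to 35 in villus at day 8 and 41 to 49 in villus at day 91. At 180 ppm they ranged from 0 to 1, 5 to 12, 6 to 16 and 24 to 30 in the same order. They ranged from 0 to 3 (day 8) and 3 to 12 (day 91) between the untreated compartments, 23 to 33 and 31 to 37 in the averaged comparison, 0 to 1 for the 180 ppm difference at each day, and 0 to 0 in crypt and 0 to 3 in villus between untreated days.

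Scaling changed the split of calls. With DESeq2 the crypt trend at day 91 had 18 up and 16 down and the villus trend 34 and 9, and with the total count as covariate the villus trend had 32 and 2. Cox4i1 in villus at day 91, not called and at -0.08 as reported, turned to 0.53 in the trend linear in ppm.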
